A study of Mus musculus with 10 samples.

Results

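miR-146a, miR-155 and miR-21 are miRNAs whose genes are switched on by signalling in activated immune cells. They are the probes named mmu-miR-146a, mmu-miR-155 and mmu-miR-21 on a panel of 566 mouse miRNA probes, and all 3 were above background in at least 5 of 10 libraries, as were 116 probes in all. The libraries came from cultured B cell progenitors of C57BL/6 mice, made by infecting E14.5 fetal liver cells with a retrovirus that carries the v-Abl kinase. In 5 of them (mutant 6 to 10) both copies of the 3'UTR of Bim, the gene of a pro-apoptotic BH3-only protein, were mutated (Bim3’UTRmut/mut), and 5 (wild type 1 to 5) had none of this mutation. Every culture, wild type included, carried v-Abl, which signals without a ligand and drives STAT5, so no resting cells were compared. The labels do not say whether the cultures of a genotype came from separate embryos or were clonal, so a p-value here speaks only of these cultures and may rest in part on technical spread.

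A miRNA guides the Argonaute protein to messenger RNAs that pair with its seed, bases 2 to 8, and lowers their output. miR-146a is induced by NF-kB and represses Traf6 and Irak1, signalling proteins upstream of NF-kB, and so forms a negative feedback loop. miR-155 is cut from the Mir155hg (BIC) transcript, which antigen receptor and Toll-like receptor signals induce through AP-1 and NF-kB, and it represses the signalling inhibitors Socs1 and Inpp5d. miR-21 is induced by AP-1 and STAT3 and represses Pdcd4, an inhibitor of translation. The comparisons below ask whether they differ between the genotypes and whether they move together across libraries.

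The mature sequences below are from RefSeq (GRCm38) and are shown because the panel tells miRNAs apart by these bases. Capitals mark the seed. The panel names carry no arm, and the 5p strand is given.
miR-146a: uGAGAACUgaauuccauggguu
miR-146b: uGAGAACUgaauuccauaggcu
miR-155: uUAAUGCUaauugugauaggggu
miR-21: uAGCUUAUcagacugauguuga
The 3 miRNAs have different seeds and so do not share a predicted target set by seed. miR-146b, the paralog of miR-146a, has the same seed and differs at 2 of 22 bases, G18A and U21C, counted from the 5' end with the base of miR-146a first. The hairpin of miR-146a lies at chr11:43374397-43374461 on the minus strand, with no other RefSeq gene over it. The hairpin of miR-155 lies at chr16:84714140-84714204 on the plus strand, within Mir155hg. That of miR-21, named Mir21a in RefSeq, lies at chr11:86584067-86584158 on the minus strand and overlaps Vmp1. The loci of miR-146a and miR-21 are on the same chromosome but far apart.

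The NanoString nCounter used here counts single barcoded probe molecules, and mouse miRNA totals were 240469 to 354826 per library. Background, the mean + 2 SD of 8 negative control probes, was 90.5 to 127 counts. Mutant samples ran in lanes 6 to 10 and wild type samples in lanes 1 to 5 of 1 cartridge, so genotype and the position of the lane cannot be told apart. Mutant 9 and 10 stood apart from the other libraries, in total count (354826 and 331407) and in several of the miRNAs below. The edgeR fold changes of the members are given with and without them. Spreads and likeness to other miRNAs were computed only with them, and the tested correlations between members only without them. The blood cell miRNA miR-142-3p counted 20505 to 29587 in mutant and 20401 to 28843 in wild type libraries. The lymphoid miRNAs were less even. miR-150 counted 329, 189, 961, 164 and 170 in mutant 6 to 10 and 522, 391, 356, 292 and 60 in wild type 1 to 5. It was below background in wild type 5. miR-181a, given further below, was highest in mutant 9 and 10, where miR-150 was low. The panel held 16 marker probes of non-lymphoid cells. They exceeded background in 3 of 80 mutant values and 2 of 80 wild type values, and their summed counts were 576 to 981 in mutant libraries and 711 to 819 in wild type libraries.

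miR-146a spanned a 48.4-fold range of counts within the mutant group. Its counts were 439, 1717, 771, 15130 and 21250 for mutant 6 to 10, against 1315, 2209, 1328, 1856 and 3292 in wild type 1 to 5. The wild type values lay within a 2.50-fold range. Mutant 9 and 10 were above every wild type library and mutant 6 and 8 below all of them, while mutant 7 was inside the wild type range, so the groups overlapped on both sides. In bulk RNA of a culture, a lower level in every cell and fewer cells with the miRNA cannot be told apart. The counting error of these values was at most 4.77% of the count. As a share of all mouse miRNA counts, miR-146a made up 4.26% in mutant 9 and 6.41% in mutant 10, against 0.494% to 1.33% in wild type libraries.

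**Figure D1:**
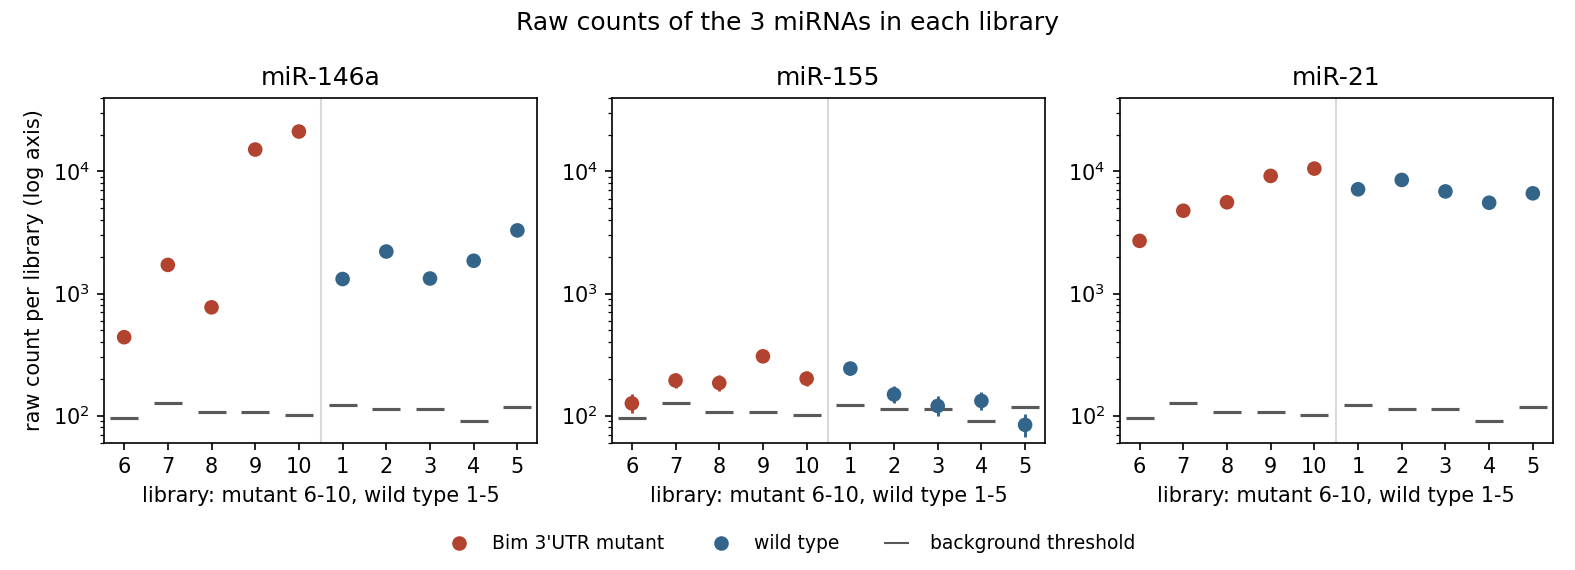
Raw counts of miR-146a, miR-155 and miR-21 on a log axis, with mutant libraries 6 to 10 on the left (red) and wild type libraries 1 to 5 on the right (blue); vertical bars are exact 95% Poisson intervals and grey dashes the background threshold of each library. miR-146a reaches 15130 and 21250 in mutant 9 and 10, whereas miR-155 stays between 84 and 306 in all libraries.

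After scaling by TMM, which makes the typical miRNA equal between libraries, miR-146a averaged 7024 ± 8738 normalised counts in mutant and 2156 ± 953 in wild type libraries (SD, n = 5 each). The mean in the mutant group was thus set by mutant 9 and 10. edgeR's quasi-likelihood fit over the 116 miRNAs put the log2 fold change, mutant over wild type, at 1.70 with an adjusted p of 0.401 (95% interval -0.49 to 3.90). Without mutant 9 and 10 it was -1.16 (edgeR adjusted p = 0.242), and without mutant 10 alone it was 0.76. Where logs were averaged rather than counts, the difference was 0.42 on the log2 scale (exact two-sided permutation p = 0.683, n = 5 each), and limma with voom weights gave 0.46. The direction of a genotype difference in miR-146a was therefore not settled by these libraries.

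What stood out for miR-146a was its spread. The SD of its log2 normalised counts was 2.42 over the mutant libraries, rank 2 of 116 miRNAs, and 0.60 over the wild type libraries, rank 13 of 116. The SD over the mutant libraries includes mutant 9 and 10 and was not computed without them. The medians over the 116 miRNAs were 0.30 in mutant and 0.18 in wild type libraries. Against the wild type mean of log2 counts, miR-146a was 6.14 times as high in mutant 9 and 9.92 times in mutant 10, rank 2 of 116 in both. In mutant 6 and 8 it was 0.235 and 0.362 times the wild type mean, ranks 113 and 114. Mutant 9 and 10 were both above every wild type library for 28 of 116 miRNAs (24.1%), and mutant 6 and 8 were both below for 13 (11.2%). miR-146a did both, as did 4 of 116 (3.45%), itself included. These positions relative to the wild type range held under each of 5 scalings, including scaling by housekeeping mRNAs and by positive controls.

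**Figure D2:**
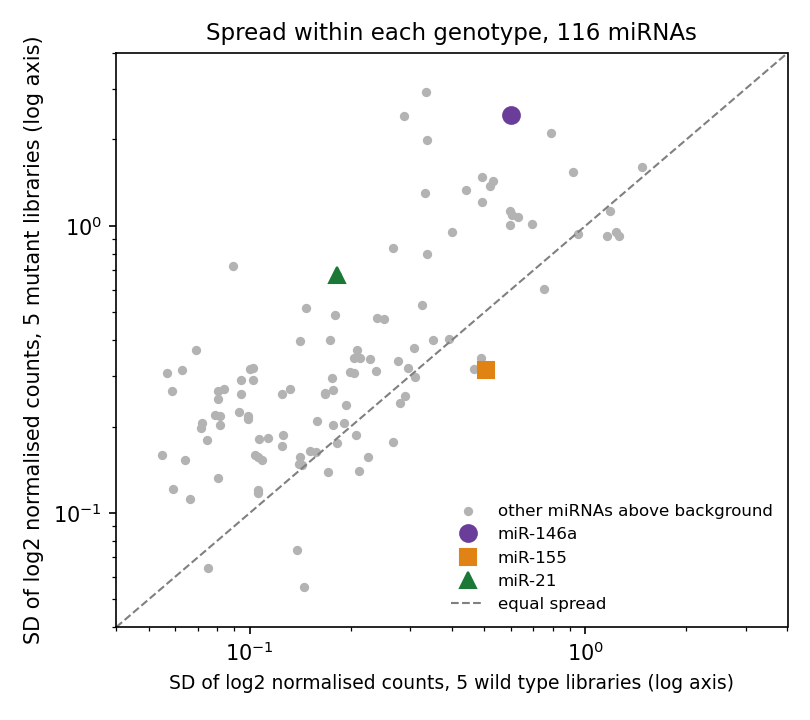
SD of log2 normalised counts over the 5 mutant libraries (vertical) against the 5 wild type libraries (horizontal), both on log axes, for 116 miRNAs; the dashed line marks equal spread. miR-146a (2.42 and 0.60) and miR-21 (0.68 and 0.18) lie above the line and miR-155 (0.32 and 0.51) below it. The wild type SD of miR-155 includes wild type 5, where its count was below background.

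The probe of miR-146b bears on whether the miR-146a signal reaches its paralog's probe. miR-146b counted 81, 106, 67, 135 and 158 in mutant 6 to 10 and 73, 121, 106, 84 and 99 in wild type 1 to 5. It was above background in mutant 9, mutant 10 and wild type 2, and was not tested because 3 libraries are fewer than the 5 required. Mutant 10 had 21250 counts of miR-146a and 158 of miR-146b, which bounds what binding of miR-146a could have added to the other probe. After TMM scaling miR-146b stood at 110 in mutant 9, inside the wild type range of 74.0 to 126, and at 148 in mutant 10, above it. Whether the higher value in mutant 10 is miR-146b itself or binding of miR-146a was not tested.

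miR-21, like miR-146a, had a narrower range in wild type than in mutant libraries. It counted 2701, 4770, 5594, 9199 and 10561 in mutant 6 to 10, against 7149, 8525, 6864, 5546 and 6623 in wild type 1 to 5. In raw counts mutant 6 and 7 were below every wild type library, mutant 8 was inside their range and mutant 9 and 10 were above it. The counts were 1.08% to 3.19% of the mouse miRNA counts in mutant and 2.31% to 3.35% in wild type libraries. After TMM scaling, which takes account of the larger totals of mutant 9 and 10, mutant 6, 7 and 8 had 2899, 4671 and 5272 normalised counts, below the lowest wild type library at 6217. Mutant 9, at 7496, was inside the wild type range, and mutant 10, at 9896, was above its top of 8860. For 12 of 116 miRNAs (10.3%) mutant 6, 7 and 8 were all below every wild type library, and mutant 10 was above every one for 36 (31%). Other scalings changed some of these positions. Under housekeeping scaling mutant 7 and 8 were inside the wild type range and mutant 9 above it. Under positive control scaling mutant 9 was above it as well (9617, against a wild type top of 8549), and under scaling by the total mutant 10 was inside it (8765, against a top of 9227). Mutant 6 was below the range under each of the 5 scalings.

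miR-21 averaged 6047 ± 2707 normalised counts in mutant and 7381 ± 949 in wild type libraries (SD, n = 5 each). The edgeR log2 fold change was -0.29, mutant over wild type (95% interval -0.93 to 0.36; adjusted p = 0.680). It was -0.78 without mutant 9 and 10 (edgeR adjusted p = 0.0680), which did not pass either, -0.55 without mutant 10 and -0.11 without mutant 6. Under housekeeping scaling, which moved the median of all miRNAs to 0.46, the value was 0.27. Its SD of log2 normalised counts was 0.68 in mutant libraries (rank 28 of 116) and 0.18 in wild type libraries (rank 55).

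Of the 3, miR-155 lay closest to background, and its groups overlapped throughout. It counted 126, 194, 185, 306 and 201 in mutant 6 to 10, against 243, 149, 120, 132 and 84 in wild type 1 to 5. The counts were 1.32 to 2.85 times the background threshold in mutant and 0.715 to 1.99 times in wild type libraries, and wild type 5 was the library below it. Counting error was 5.72% to 10.9% of each count. The highest count, 306 in mutant 9, had an exact 95% Poisson interval of 273 to 342, which covers counting error only. After TMM scaling mutant 9 stood at 249 and wild type 1 at 246, a difference within that error. Mutant 9 was above every wild type library for 46 of 116 miRNAs (39.7%), and for miR-155 this did not hold under scaling by DESeq2 size factors or by the total.

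miR-155 averaged 187 ± 41.0 normalised counts in mutant and 154 ± 57.0 in wild type libraries (SD, n = 5 each). The edgeR log2 fold change was 0.29, mutant over wild type (95% interval -0.28 to 0.85; adjusted p = 0.654), and 0.12 without mutant 9 and 10 (edgeR adjusted p = 0.785). It was 0.52 without wild type 1 and 0.14 without mutant 9. Unlike the other members, miR-155 had a smaller SD of log2 normalised counts in mutant (0.32, rank 52 of 116) than in wild type libraries (0.51, rank 18). The wild type SD includes wild type 5, where miR-155 was below background, and was not computed without it. Subtracting the mean negative control gave a log2 fold change of 0.48 (edgeR adjusted p = 0.649), which did not pass either.

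In all, 0 of the 3 members passed an adjusted p of 0.05 in edgeR, where 0 of 116 miRNAs did (0%), and 0 of 3 had an unadjusted p under 0.05, where 11 of 116 did (9.48%). DESeq2's Wald test called 5 of 115 miRNAs with an adjusted p (4.35%) and limma with voom weights 0 of 116 (0%), with no member among them. Without mutant 9 and 10 edgeR called 5 of 116 (4.31%), again with no member among them. Values above 0 were found for 2 of 3 members and for 58 of 116 miRNAs (50%). The median log2 fold change was 0.29 over the members and -0.00 over all miRNAs. The fitted change of miR-146a was beyond 2-fold, as for 5 of 116 (4.31%). The genotypes did not overlap for 3 of 116 miRNAs (2.59%), none of them a member.

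The 3 miRNAs did not go up and down as one group. Relative to the wild type mean of log2 counts, mutant 9 stood at 2.62 for miR-146a, 0.77 for miR-155 and 0.03 for miR-21, and mutant 10 at 3.31, 0.37 and 0.43. In mutant 6 the values were -2.09, -0.11 and -1.34, in mutant 7 -0.26, 0.38 and -0.65, and in mutant 8 -1.47, 0.26 and -0.48. miR-146a and miR-21 were thus both below the wild type mean in mutant 6, 7 and 8 and both above it in mutant 10. In mutant 9 miR-146a was above it and miR-21 close to it: as a share of mouse miRNA counts miR-21 was 2.59% in mutant 9, against a mean of 2.73% in wild type libraries, so its side of the mean turned with the scaling. miR-155 was below it in mutant 6 and above it in the other mutant libraries. Among wild type libraries, wild type 5 had the highest miR-146a (0.88) and the lowest miR-155 (-0.64). That miR-155 count, 84, was below the background threshold of 118, so it is not a measured level. Wild type 1 had the highest miR-155 (0.75) and the lowest miR-146a (-0.59). Wild type 3 was close to wild type 1 in miR-146a (-0.53) but had miR-155 below the mean (-0.22).

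**Figure D3:**
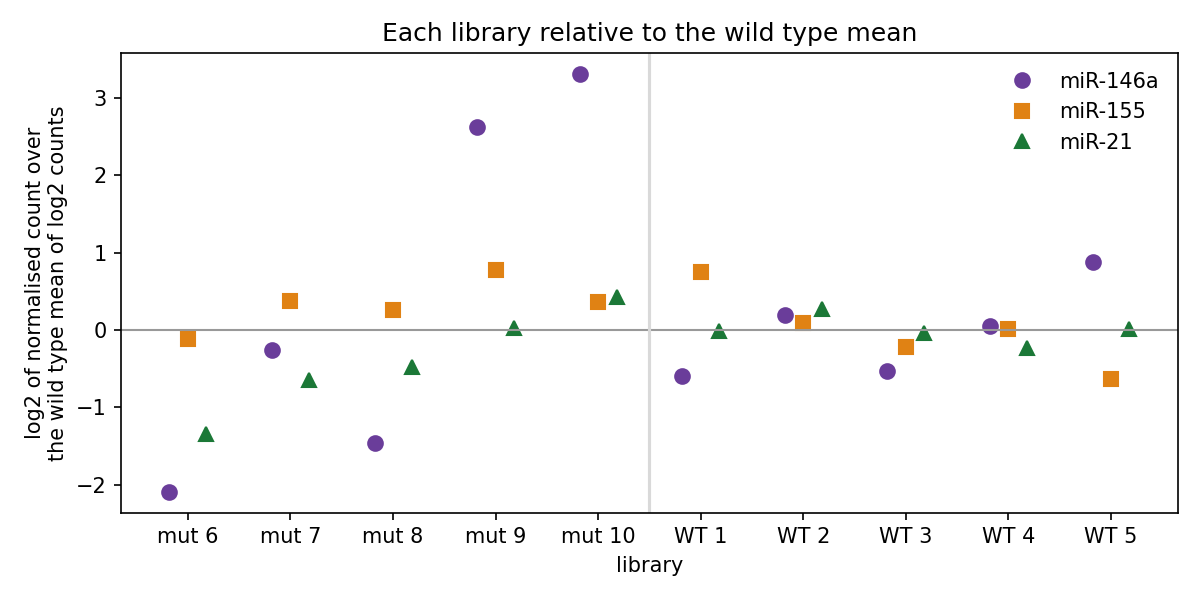
Log2 normalised count of miR-146a (circles), miR-155 (squares) and miR-21 (triangles) in each library minus the wild type mean of log2 counts, with mutant libraries on the left and wild type libraries on the right. miR-146a runs from -2.09 in mutant 6 to 3.31 in mutant 10, and miR-21 from -1.34 to 0.43 in the same libraries; mutant 7 is above mutant 8 for miR-146a and below it for miR-21.

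Because mutant 9 and 10 stood apart, in miR-146a itself and in the whole profile, correlations were computed over the other 8 libraries. The choice of libraries thus used values of a miRNA being correlated, and the p-values do not account for it. For miR-146a and miR-21, Pearson's r of log2 normalised counts was 0.77 (exact permutation p = 0.0263; 0.0790 after Benjamini-Hochberg adjustment over 3 pairs) and Spearman's rho was 0.69 (exact permutation p = 0.0694, adjusted p = 0.208). This relation did not pass the adjusted threshold, and it weakened to r = 0.44 (exact permutation p = 0.393) over 6 libraries, without wild type 5 and mutant 6, the farthest from the median of miR-146a. Without mutant 6 alone r was 0.48. Within genotypes, as deviations from the genotype means, r was 0.46 (exact permutation p = 0.439), so the pooled value also holds the difference between mutant 6 to 8 and wild type. No correlation was computed within a genotype alone.

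For miR-146a and miR-155, r was -0.31 (exact permutation p = 0.455, adjusted p = 0.682) and rho -0.31 (exact permutation p = 0.462, adjusted p = 0.693). Without wild type 5 and mutant 6, r was -0.23, as deviations from the genotype means -0.23, and without wild type 5 alone 0.14. The sign of r turned when wild type 5 alone was left out, but not when mutant 6 was left out with it. In wild type 5 miR-155 was below background, so r over the 8 libraries rests in part on a value that is not a measured level. The same value enters the next pair. For miR-155 and miR-21, r was -0.037 (exact permutation p = 0.923, adjusted p = 0.923) and rho -0.14 (exact permutation p = 0.752, adjusted p = 0.752). Without wild type 1 and 5 it was -0.044 (exact permutation p = 0.936), and as deviations from the genotype means 0.27 (exact permutation p = 0.435). A p that misses the threshold over 8 libraries does not show that these pairs are unrelated.

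**Figure D4:**
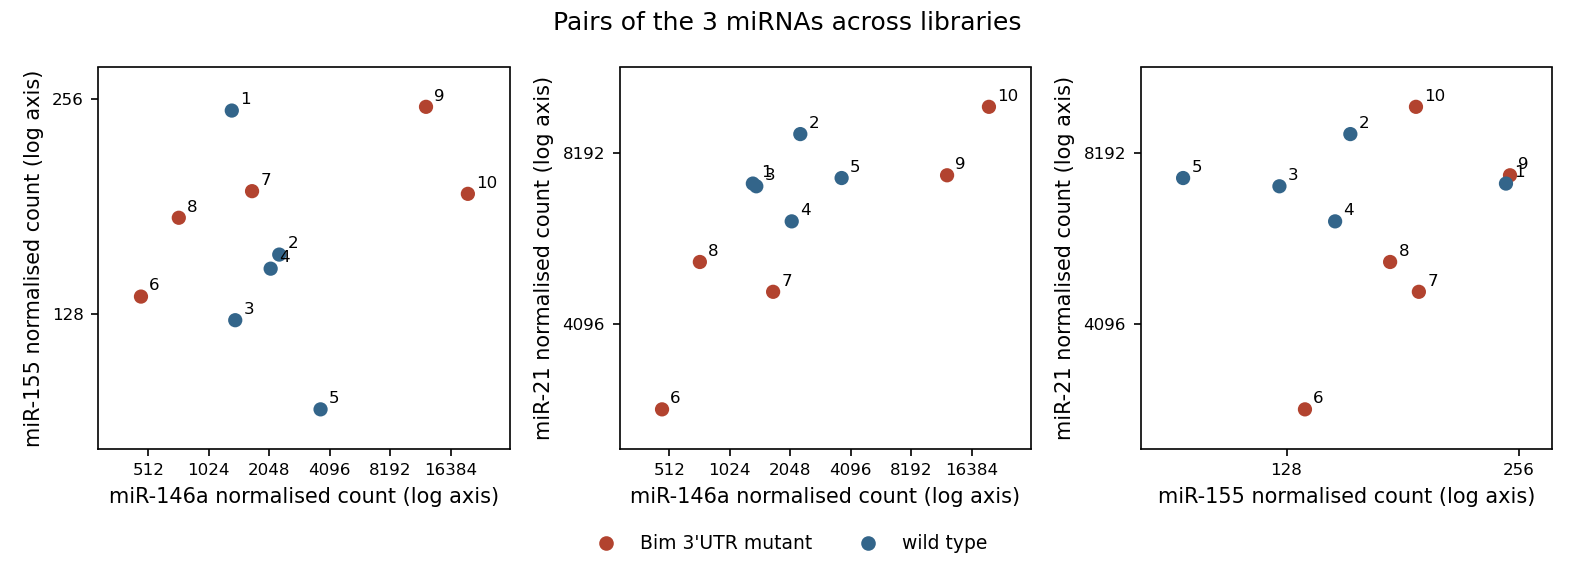
Normalised counts of the 3 pairs of miRNAs on log axes, 1 point per library, with mutant libraries in red and wild type libraries in blue, each with its number. In the middle panel miR-146a and miR-21 are lowest together in mutant 6 and highest together in mutant 10, and the panels with miR-155 show no such order.

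Ranked over all 10 libraries, which share mutant 9 and 10 and their larger totals, miR-21 was among the miRNAs most like miR-146a and miR-155 was not. miR-21 came 4 of 115 in Spearman's rho with miR-146a (0.82), and miR-155 came 47 of 115 (0.18); the median over the 113 non-member miRNAs was 0.055. The 3 most like miR-146a were miR-181a (0.87), a miRNA of early lymphocyte development, miR-191 (0.84) and miR-22 (0.82). miR-181a had 10918 counts in mutant 9, 10817 in mutant 10 and 3210 to 4585 in the other 8 libraries. miR-191 had 2151 counts in mutant 9, 1490 in mutant 10 and 876 to 1258 elsewhere.

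Most like miR-21 were miR-23b (rho 0.90), let-7b (0.88) and let-7c (0.87), with miR-146a at 5 of 115. let-7b counted 26, 37, 25, 1209 and 1418 in mutant 6 to 10 and 456 to 899 in wild type libraries, with the low values in the 3 mutant libraries where miR-21 was also low. In those 3 it was below the background threshold, so the order of let-7b among them has no meaning and its rho rests in part on it. The rho of let-7c has a like limit. It counted 96 in mutant 6, at the threshold of 95.3, and 87 and 49 in mutant 7 and 8, below thresholds of 127 and 106. Most like miR-155 were miR-30b (0.88), miR-361 (0.68) and miR-574-5p (0.67). Like miR-155, miR-361 lay near background, at 92 to 177 counts. miR-21 and miR-146a came 36 and 40 of 115 for miR-155, with rho of 0.20 and 0.18.

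Of 13 other miRNAs reported to be induced downstream of NF-kB, AP-1, CREB or STAT signalling, 2 were above background in at least 5 libraries. Over the whole panel this held for 116 of 566 mouse miRNA probes. In edgeR 0 of the 2 passed, where 0 of the 116 did (0%). let-7e counted 274, 313, 332, 325 and 395 in mutant 6 to 10 and 331, 339, 311, 282 and 227 in wild type 1 to 5, and its log2 fold change was -0.03 with an edgeR adjusted p of 0.970 (95% interval -0.31 to 0.25). The probe shared by miR-181b and miR-181d counted 133, 146, 103, 181 and 176 in mutant 6 to 10 and 116 to 125 in wild type libraries. Its log2 fold change was 0.11 (edgeR adjusted p = 0.726). It lay close to background, at 0.971 to 1.73 times the threshold, and was below it in wild type 1 and mutant 8. The remaining 11 were above background in fewer than 5 libraries each, and some were far below it. miR-147, which Toll-like receptor signals induce, counted 23 to 31 over the 10 libraries, and miR-9, which NF-kB induces, 19 to 32. Besides miR-146b, 5 of the 11 were above background in at least 1 library. miR-187 was in 4 libraries, at 111 in mutant 10 and 112 to 122 in wild type 2, 4 and 5, and miR-125b-5p in wild type 3 (116) and 4 (103). miR-125a-5p was above it in mutant 6 (97), miR-221 in mutant 10 (141) and miR-132 in wild type 5 (135). miR-221 counted 26, 22, 20 and 56 in the other mutant libraries and 59 to 83 in wild type. Their low counts do not show absence, since the probes' efficiencies are not known.

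Other measures also varied between the libraries, only some of them along with miR-146a and miR-21, and their part in these results was not tested. B2m mRNA, which encodes beta-2-microglobulin of MHC class I molecules, had counts of 1592, 1584, 1490, 4029 and 4195 in mutant 6 to 10 and 3250 to 4561 in wild type libraries. That of Gapdh, a glycolytic enzyme, counted 1187, 1089, 966, 244 and 309 in mutant 6 to 10 and 625 to 901 in wild type. miR-223, a myeloid miRNA, counted 24, 17, 21, 25 and 137 in mutant 6 to 10 and 28 to 96 in wild type libraries. It was above background in wild type 4 (92) and in mutant 10, but not in mutant 9, where miR-146a was also high. miR-126-3p, of endothelial and progenitor cells, counted 105, 70, 97, 47 and 234 in mutant 6 to 10 and 45 to 65 in wild type libraries. It was above background in mutant 6, where miR-146a was lowest, and in mutant 10, where miR-146a was highest. miR-126-5p, from the same hairpin, was below background in every library, at 20 to 37 counts in mutant and 19 to 24 in wild type. The geometric mean of the positive controls was 1401 in mutant 9 and 1450 in mutant 10, inside the wild type range of 1333 to 1569.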

How the data were processed

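The authors deposited whole-number counts per probe, not normalised as far as the values show, in 2 tables with identical values (6260 of 6260). Per the labels' protocols, the nCounter input was 100 ng of RNA; the software is not given in the sources used here. Groups and sample numbers came from the titles. The table's own averages were not used, since they cover more lanes than the 10 samples.

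Mouse miRNA probes above the mean + 2 SD of 8 negative controls in at least 5 libraries (116 of 566) went into edgeR 4.0.16 under R 4.3.3. It used TMM factors and a robust quasi-likelihood model of genotype, and p-values were adjusted over all 116 by Benjamini-Hochberg. The test was run on simulated counts first. Alternatives were 4 other scalings, 2 other filters, background subtraction, DESeq2 1.42.0, limma 3.58.1 with voom, a fit without robust estimation, an exact permutation test and leaving out libraries. Normalised counts are counts over the scaled library size. Correlations used exact permutation of the pairing. The members, lists and tests were chosen with earlier results of these data known. Named miRNAs were the members, miR-146b, kept members of the activation list and the 3 miRNAs most like each member by Spearman's rho. Others were named after their values were seen: miR-147, miR-9, miR-125a-5p, miR-187, miR-125b-5p, miR-221 and miR-132. So were the markers miR-142-3p, miR-150, miR-223, miR-126-3p and miR-126-5p.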

Additional observations from a re-analysis of the deposited data

How the results depend on the processing

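No member passed the adjusted threshold under any alternative tried. miR-146a was reversed without mutant 9 and 10 (-1.16), and miR-21 under housekeeping scaling (0.27); both kept their sign under the other 21 alternatives. These scalings shift all miRNAs: the median log2 fold change of the 116 was 0.46 with housekeeping mRNAs and 0.20 with positive controls. miR-155 was above 0 under all 21 alternatives that gave a value, from 0.12 to 0.77; the filter for all 10 libraries removes it. Leaving out 1 library gave 0.76 to 2.01 for miR-146a, 0.14 to 0.52 for miR-155 and -0.55 to -0.11 for miR-21. The number of miRNAs called was 5 with DESeq2, 5 without mutant 9 and 10, and 0 to 1 when 1 library was left out (miR-29b without mutant 10). No activation list member was called in edgeR, DESeq2 or limma. The correlation of miR-146a and miR-21 ran from 0.48 to 0.83 when 1 library was left out, and passed without mutant 7 (adjusted p = 0.0440); that of miR-146a and miR-155 ran from -0.61 to 0.14. That of miR-155 and miR-21 ran from -0.31 to 0.19, and was 0.076 on raw counts and 0.27 as deviations from the genotype means. The cause of these changes was not tested. No paired analysis was possible because the genotypes share no sample numbers. Signal over background limits miR-155, with counts of 0.715 to 2.85 times the background threshold.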

Other observations

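miR-146a and miR-21 also ranked the libraries much as the B2m mRNA did. Over the 10 libraries, with mRNA counts scaled to the positive controls, Spearman's rho with B2m was 0.81 for miR-146a, 0.85 for miR-21 and 0.018 for miR-155. With Gapdh it was -0.53, -0.70 and -0.50, and with Rpl19, a ribosomal protein mRNA, 0.042, -0.22 and -0.35. With Actb it was -0.25, -0.33 and -0.49. These values are descriptions chosen after the data were seen, over libraries that include mutant 9 and 10, and they carry no test.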
